A study of Rattus norvegicus with 24 samples.

Results

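The 5 genes described here, ENSRNOG00000014226, ENSRNOG00000003348, ENSRNOG00000019129, ENSRNOG00000055185 and ENSRNOG00000004423, were taken from 32662 gene rows of the deposited count tables and were selected on their counts in the 12 amygdala libraries, which were lower in high-responder than in low-responder rats. They were measured by poly-A RNA sequencing in 24 libraries from rats aged 60 days. The 4 groups were high-responder amygdala, low-responder amygdala, high-responder dorsal raphe and low-responder dorsal raphe, with 6 libraries each. The lines carry no transgene or treatment in the labels; they were bred for opposite responses to novelty, so a difference between them is a difference between these 2 bred lines and cannot be tied to the response itself. Because the amygdala line difference chose the genes, it is given below as a description and is not tested for them. The same line difference in the dorsal raphe was not used in the choice and is tested. The difference between the regions, averaged over the lines, is tested too, but it shares the amygdala libraries with the choice.

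The amygdala is a group of forebrain nuclei that assigns emotional weight to stimuli and takes part in fear and anxiety-like behaviour. The dorsal raphe is a midbrain nucleus whose serotonin neurons project widely to the forebrain, the amygdala included. Selective breeding fixes alleles across the genome, both those that bear on the selected behaviour and those that drift, so bred lines commonly differ in the expression of individual genes. The tables give Ensembl IDs without symbols and 0 of the IDs matched the RefSeq gene table used here, so the products of the 5 genes, their places in the genome and their promoters are not described. Marker lists for neurons, glia and other cell types could not be applied for the same reason, and the labelled regions were not checked against markers.

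Library totals ranged from 9232983 to 20194601 counts. The deepest was library 1 of the high-responder amygdala group. The library numbers written in the tables place all 12 low-responder libraries before all 12 high-responder libraries, so line and the order of library numbers cannot be told apart. The numbers are not continuous within a group, and the libraries after the first break are called later here: 4 of the 12 amygdala libraries and 5 of the 12 from the dorsal raphe. The labels do not say whether the 6 libraries of a group are 6 animals, so the p-values refer to library-to-library spread, some of which may be technical.

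In the amygdala, ENSRNOG00000014226, ENSRNOG00000003348 and ENSRNOG00000004423 were well counted, with at least 279 counts in every library, and ENSRNOG00000019129 and ENSRNOG00000055185 thinly counted. Levels are given as CPM, that is counts scaled to a common library total with TMM factors. No gene lengths were at hand, so levels are compared between libraries and not between genes.

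ENSRNOG00000014226 stood between 64.9 and 78.5 CPM in the 6 high-responder amygdala libraries, with a median of 71.5. In low-responder amygdala it stood between 84.1 and 101 CPM, with a median of 97.9. The lowest low-responder library, number 4, lay above the highest high-responder library, number 5, so the lines did not overlap. The means were 71.7 ± 4.51 and 95.4 ± 6.31 CPM (SD, n = 6 each), and the fitted log2 fold change, high minus low responder, was -0.41 (SE 0.06), which is a level of 75.2% of the low-responder mean. It rested on 724 to 1415 counts per library in high responders and 1110 to 1337 in low responders.

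ENSRNOG00000003348 stood between 26.9 and 34.1 CPM in high-responder amygdala, with a median of 29.1, and between 38.3 and 41.5 CPM in low-responder amygdala, with a median of 40.1. No library of one line reached the range of the other. The low-responder libraries were even: their SD of 1.07 CPM was under the 1.79 CPM that counting error alone gives at this depth, while the high-responder SD of 2.82 CPM was above its counting error of 1.58 CPM. The mean levels were 29.6 and 40.0 CPM, a log2 fold change of -0.44 (SE 0.07).

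ENSRNOG00000004423 had the highest counts of the 5, at 848 to 1675 per amygdala library. It stood between 76.9 and 93.8 CPM in high-responder amygdala (median 81) and between 91.8 and 127 CPM in low-responder amygdala (median 116). This was the only one of the 5 whose lines overlapped, because low-responder library 3, at 91.8 CPM, lay under high-responder library 2, at 93.8 CPM. The other 5 high-responder libraries reached at most 85.7 CPM and the other 5 low-responder libraries began at 110 CPM. The log2 fold change was -0.46 (SE 0.08), from means of 82.5 ± 6.49 and 114 ± 12.6 CPM (SD, n = 6 each).

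ENSRNOG00000019129 rested on 47 to 118 counts per library in high-responder amygdala and 85 to 158 in low-responder amygdala. It stood between 4.39 and 5.87 CPM in high responders (median 5.17) and between 7.11 and 12 CPM in low responders (median 8.63). The lines did not overlap, and the low-responder libraries were the more spread, with an SD of 1.76 CPM against a counting error of 0.854 CPM. In high responders the SD of 0.548 CPM was no larger than the counting error of 0.662 CPM. The log2 fold change was -0.81 (SE 0.14), and the high-responder mean was 57.1% of the low-responder mean.

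ENSRNOG00000055185 was the most thinly counted, with 13 to 44 counts per library in high-responder amygdala and 47 to 64 in low-responder amygdala. It had the largest fold difference of the 5. It stood between 1.04 CPM, in library 3, and 2.81 CPM, in library 2, in high responders (median 2.20), and between 3.56 and 5.35 CPM in low responders (median 4.68). The lines did not overlap. The log2 fold change was -1.14 (SE 0.19), a high-responder mean of 45.6% of the low-responder mean. Library 3 set the low end by itself, since the next high-responder library stood at 1.91 CPM.

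**Figure D1:**
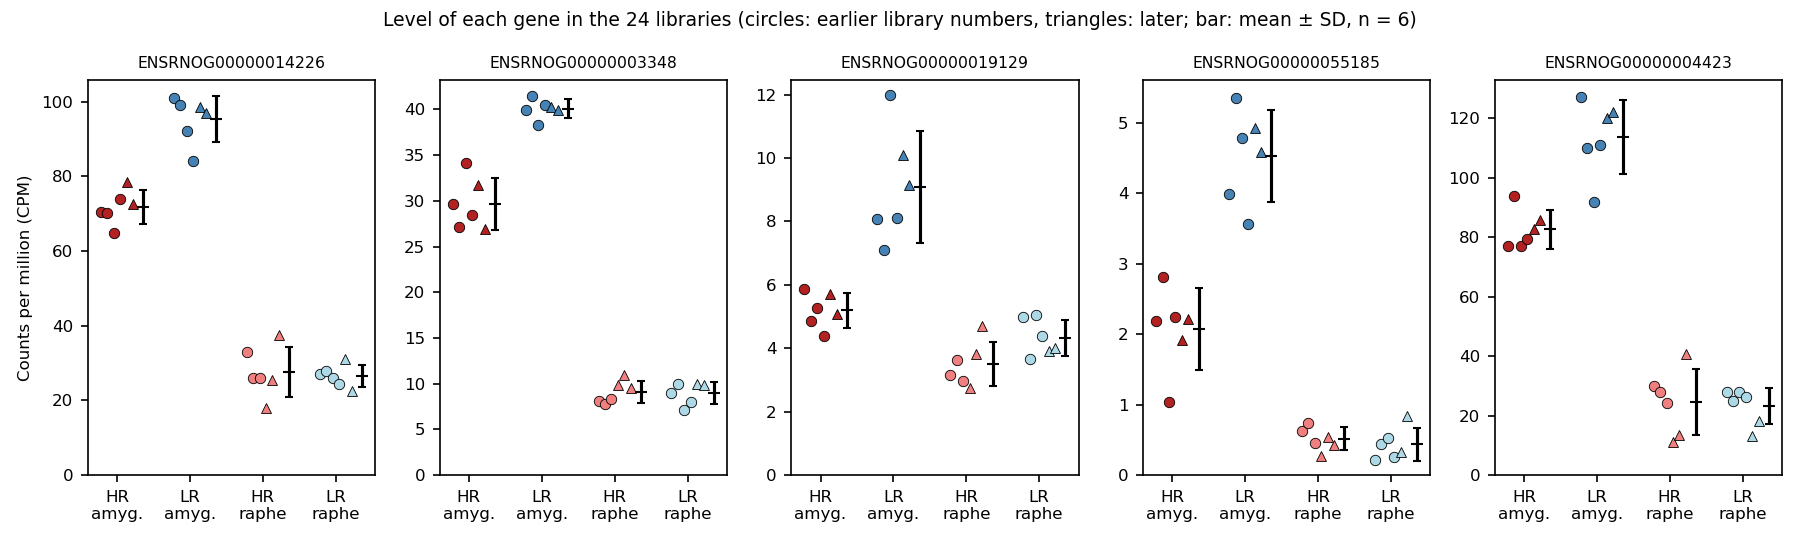
Level in CPM of each of the 5 genes (1 panel per gene, vertical axis from 0) in the 24 libraries by line (HR, high responder; LR, low responder) and region; circles are earlier and triangles later library numbers, and the bar beside each group is the mean ± SD (n = 6). In the amygdala the low-responder points lie above the high-responder points, with an overlap only for ENSRNOG00000004423, while in the dorsal raphe the lines overlap for all 5.

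The library at the low end differed between the genes. The lowest high-responder value belonged to library 3 for ENSRNOG00000014226 and ENSRNOG00000055185, to library 6 for ENSRNOG00000003348, to library 4 for ENSRNOG00000019129 and to library 1 for ENSRNOG00000004423, where library 3 gave the same value to 3 digits. When each of the 12 libraries was left out in turn, the log2 fold change ranged from -0.45 to -0.39 for ENSRNOG00000014226, from -0.48 to -0.41 for ENSRNOG00000003348, from -0.52 to -0.43 for ENSRNOG00000004423, from -0.87 to -0.70 for ENSRNOG00000019129 and from -1.24 to -1 for ENSRNOG00000055185. The earlier and the later libraries alone gave, in this order, -0.44 and -0.37, -0.43 and -0.45, -0.44 and -0.52, -0.80 and -0.83, and -1.11 and -1.20. These are the libraries that chose the genes, so the values describe the choice and do not support it.

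Over all 14265 genes tested in the amygdala, edgeR's quasi-likelihood test called 3 genes at a Benjamini-Hochberg adjusted p under 0.05, 0.0210% of those tested, all lower in high responders in this fit; DESeq2 called 30 higher and 52 lower, limma voom 99 higher and 147 lower. One of the 3, ENSRNOG00000014226, is among the 5, at an edgeR adjusted p of 0.0495. Its call ended with RLE scaling (0.0536), library size only (0.0534), no low count filter (0.0756), a term for later libraries (0.0581) and the replicate number as a block (0.114), in earlier (0.667) and later libraries alone (0.141), and on leaving out any library (0.0738 to 0.175) except number 2 of the high responders and numbers 3 and 4 of the low responders. The lines did not overlap, with high responders lower, for 52 genes (0.365%), 4 of the 5 among them. These counts come from the contrast that chose the genes and are given as a description only. The median log2 fold change was -0.46 for the 5 and -0.002 for all genes tested.

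Whether the line difference also appeared in the dorsal raphe was asked of libraries that the choice had not used. It was not detected for any of the 5. With edgeR's quasi-likelihood test, 9 of 14390 genes (0.0625%) were called there, 0 of the 4 members tested among them; none of the 4 had an unadjusted p under 0.05, against 726 genes (5.05%) of all tested. DESeq2 and limma voom also called 0 of the 4 after adjustment. The median log2 fold change was 0.03 for the 4 and -0.011 for all genes tested. Of the 4, 1 was negative, against 53.8% of all genes tested.

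ENSRNOG00000014226 stood between 17.9 and 37.4 CPM in high-responder dorsal raphe (median 26.0) and between 22.6 and 31.1 CPM in low-responder dorsal raphe (median 26.6). The high-responder range enclosed the low-responder one. The log2 fold change was 0.05 (95% interval -0.29 to 0.39, edgeR adjusted p = 0.999).

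ENSRNOG00000003348 stood between 7.72 and 10.9 CPM in high-responder dorsal raphe (median 8.92) and between 7.12 and 9.97 CPM in low-responder dorsal raphe (median 9.41), so the ranges lay over each other. Its log2 fold change was 0.01 (95% interval -0.27 to 0.29, edgeR adjusted p = 0.999).

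ENSRNOG00000004423 was more spread, relative to its mean, in the dorsal raphe than in the amygdala. It stood between 11.2 and 40.6 CPM in high responders (median 26.1) and between 13.2 and 28.0 CPM in low responders (median 25.6). The SD was 44.6% of the mean in high-responder dorsal raphe, against 7.87% in high-responder amygdala. In low responders it was 26.3% against 11%, but in CPM the low-responder SD was smaller in the dorsal raphe (6.06 against 12.6). The amygdala spread comes from the libraries that chose the gene, so this comparison is a description. Its log2 fold change was 0.08, with a wide 95% interval of -0.57 to 0.73 (edgeR adjusted p = 0.999). The later libraries alone gave 0.47 (SE 0.57) and the earlier ones 0.02 (SE 0.09).

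ENSRNOG00000019129 was the only one of the 4 with a negative value in the dorsal raphe. It stood between 2.76 and 4.69 CPM in high responders (median 3.39) and between 3.66 and 5.04 CPM in low responders (median 4.19). The high-responder libraries reached lower, but the ranges overlapped. The log2 fold change of -0.32 (SE 0.15, 95% interval -0.66 to 0.02) did not pass the test (unadjusted p = 0.0568 and adjusted p = 0.999 with edgeR). The value was -0.48 in the earlier and -0.10 in the later libraries, and -0.42 to -0.25 when 1 library was left out. The unadjusted p was 0.0108 with limma voom (-0.42), 0.0212 in earlier libraries, 0.0121 without high-responder library 6 and 0.0475 without low-responder library 2, none of which passed after adjustment (adjusted p = 0.252 to 1 over these).

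ENSRNOG00000055185 had 3 to 10 counts in each dorsal raphe library and did not pass the low count filter there. It stood between 0.276 and 0.742 CPM in high responders (median 0.501) and between 0.216 and 0.844 CPM in low responders (median 0.387). Totals over the 6 libraries were 41 counts in high responders and 29 in low responders. The ranges overlapped and the means, 0.512 and 0.435 CPM, did not differ detectably at this depth (two-sided exact permutation p = 0.511 over 924 splits, n = 6 per line). With no low count filter the log2 fold change was 0.25, with a 95% interval of -0.57 to 1.06 (edgeR adjusted p = 0.991).

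The amygdala values were selected for their size and the dorsal raphe values were not. The difference between the regions in the line effect was therefore not tested, and the 5 are not shown to differ between the lines in the amygdala alone. Among the 572 genes lower in high-responder amygdala at an unadjusted p under 0.05 that were also tested in the dorsal raphe, 72.6% had a negative line difference there, against 53.8% of all genes tested in the dorsal raphe.

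**Figure D2:**
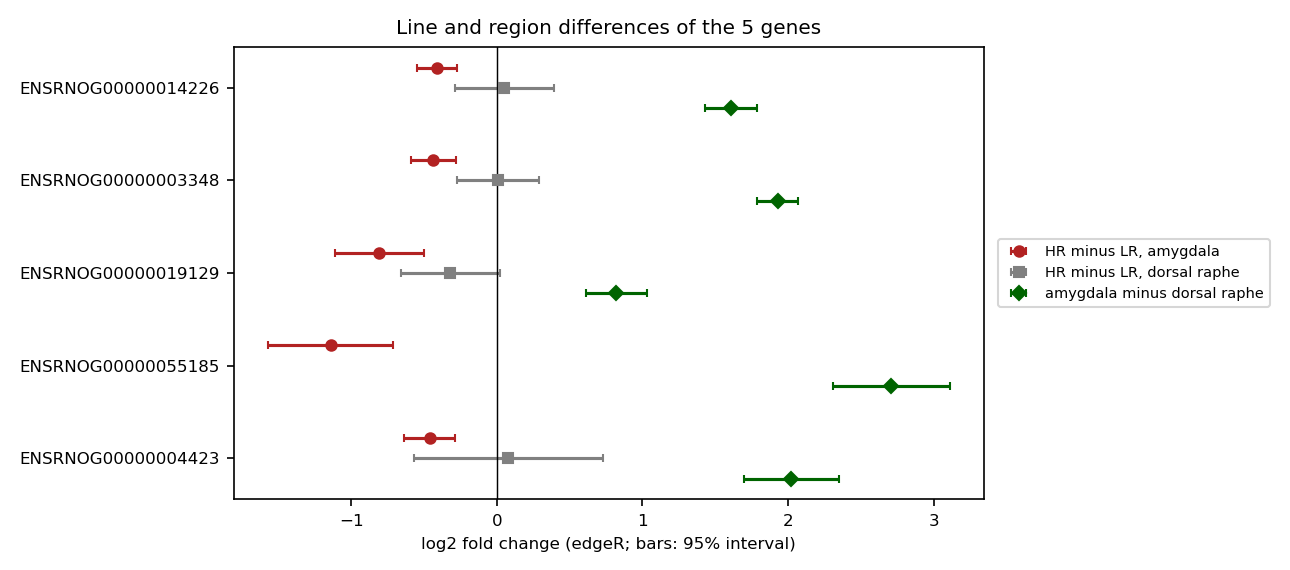
Fitted log2 fold changes (horizontal axis) of the 5 genes (vertical axis) with 95% intervals: high minus low responder in the amygdala (circles), the same in the dorsal raphe (squares; none for ENSRNOG00000055185, which did not pass the low count filter) and amygdala minus dorsal raphe over both lines (diamonds). The dorsal raphe line differences lie between -0.32 and 0.08 with intervals across 0, and all 5 region differences lie above 0, from 0.82 to 2.71.

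All 5 genes had a higher level in the amygdala than in the dorsal raphe. This difference is averaged over both lines, but it shares its amygdala libraries with the choice. The adjusted p-values of the region test do not allow for that. Over 24 libraries, 9851 of 14977 genes (65.8%) were called between the regions by edgeR's quasi-likelihood test and 4764 (31.8%) were higher in the amygdala. The share higher in the amygdala was 63.5% among the 616 genes lower in high-responder amygdala at an unadjusted p under 0.05, and 14.9% of these were lower there. The count of members is to be read against that larger share rather than against 31.8%. Leaving out ENSRNOG00000055185, which is set apart below, the log2 differences of the members ran from 0.82 to 2.02. The median over all genes tested was -0.016. In bulk tissue, fewer cells of a type and less RNA per cell cannot be told apart.

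ENSRNOG00000055185 had the largest region difference of the 5, a log2 difference of 2.71 (SE 0.19) in the fit for the region test. It enters this test through its amygdala counts, since it did not pass the low count filter in the dorsal raphe, and so it had to differ between the regions; its value is a description and leaves 4 of the 5 that bear on the count. ENSRNOG00000004423 followed with 2.02 (SE 0.16, edgeR adjusted p = 4.01e-11), ENSRNOG00000003348 with 1.93 (SE 0.07, edgeR adjusted p = 1.1e-17) and ENSRNOG00000014226 with 1.61 (SE 0.09, edgeR adjusted p = 2.61e-14). For ENSRNOG00000004423, ENSRNOG00000003348 and ENSRNOG00000014226 the 12 amygdala libraries all lay above the 12 dorsal raphe libraries. The same held for ENSRNOG00000055185, which is set apart above. Of all genes tested, 1770 (11.8%) were separated in this direction. The share among genes lower in high-responder amygdala was not computed, so the separation is a description. The smallest difference was that of ENSRNOG00000019129, 0.82 (SE 0.10, edgeR adjusted p = 1.35e-07), and its regions overlapped: its lowest high-responder amygdala library stood at 4.39 CPM and its highest dorsal raphe library at 5.04 CPM. For the 4 genes other than ENSRNOG00000055185, the region difference stayed past the threshold under each alternative run. The fits on earlier and on later libraries alone were among these.

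By group mean, the order was low-responder amygdala, high-responder amygdala and then the dorsal raphe groups for all 5. The dorsal raphe groups of the lines were not separable from each other. The step between the amygdala groups is the difference that chose the genes. The step from high-responder amygdala to the dorsal raphe was not tested within the line. For ENSRNOG00000019129 the libraries overlapped at this step, with 4.39 CPM the lowest and 5.04 CPM the highest dorsal raphe value. The lower level in high-responder amygdala still lay well above the dorsal raphe for ENSRNOG00000014226, ENSRNOG00000003348 and ENSRNOG00000004423: their lowest high-responder amygdala values were 64.9, 26.9 and 76.9 CPM and their highest dorsal raphe values 37.4, 10.9 and 40.6 CPM. For ENSRNOG00000055185 the margin was narrow, at 1.04 against 0.844 CPM. The ratio of the amygdala mean to the dorsal raphe mean was 2.60, 3.27, 3.36, 1.48 and 4.03 in high responders for ENSRNOG00000014226, ENSRNOG00000003348, ENSRNOG00000004423, ENSRNOG00000019129 and ENSRNOG00000055185. In low responders it was 3.6, 4.47, 4.93, 2.10 and 10.4. The gap between these ratios contains the amygdala line difference that chose the genes.

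Within the dorsal raphe, the libraries part by library number, and this was examined for the 5 after it had been seen in the data. Between later and earlier dorsal raphe libraries, with line in the fit, edgeR's quasi-likelihood test called 6919 of 14390 genes (48.1%), so a single call among the 4 tested is below that background. ENSRNOG00000004423 stood between 24.2 and 29.8 CPM in the 7 earlier libraries. In 4 of the 5 later libraries it stood at 11.2, 13.4, 13.2 and 18.1 CPM, and in the fifth, high-responder library 6, at 40.6 CPM, the highest dorsal raphe value of all. Later libraries thus lay on both sides of the earlier ones. The log2 difference of -0.51 (SE 0.27) did not pass (edgeR adjusted p = 0.135). It was -0.94 without high-responder library 6 (edgeR adjusted p = 0.000263), where 7731 of 14484 genes were called. With limma voom, which weights libraries by quality, it was -0.83 (adjusted p = 0.000606), where 8167 of 14390 genes were called. A call in these settings is thus common. On leaving out any other library it did not pass (edgeR adjusted p = 0.124 to 0.314).

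ENSRNOG00000003348 was higher in later dorsal raphe libraries, 9.54 to 10.9 CPM against 7.12 to 9.91 CPM in earlier ones, a log2 difference of 0.30 (SE 0.10, edgeR adjusted p = 0.023). The call ended on leaving out library 2, 4 or 5 of the high responders, or library 5 of the low responders, singly (edgeR adjusted p = 0.0508 to 0.0709), with library size as the only scaling (0.0731) and with no low count filter (0.076). ENSRNOG00000014226 and ENSRNOG00000019129 showed no detectable difference, at -0.01 (SE 0.16, edgeR adjusted p = 0.981) and 0.04 (SE 0.16, edgeR adjusted p = 0.868). With a term for later libraries in the fit, the line differences in the dorsal raphe were 0.05, -0.05, -0.34 and 0.19 for ENSRNOG00000014226, ENSRNOG00000003348, ENSRNOG00000019129 and ENSRNOG00000004423, with none called.

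High-responder dorsal raphe libraries 4 and 6 stood at the ends of their group for several of the 5. Library 4 was the lowest of its group for ENSRNOG00000014226, ENSRNOG00000019129, ENSRNOG00000055185 and ENSRNOG00000004423. Library 6 was the highest for ENSRNOG00000014226, ENSRNOG00000019129 and ENSRNOG00000004423. The lowest value of ENSRNOG00000055185 rested on 5 counts, the same number as in libraries 5 and 6. Both library 4 and library 6 are later libraries. The share of all genes with these libraries at the ends was not computed, so this is not read as a trait of the 5. Deviations of pairs of genes from their line means were correlated across the 12 dorsal raphe libraries, 10 pairs in all. None passed after adjustment. The largest r was between ENSRNOG00000014226 and ENSRNOG00000004423, with Pearson's r of 0.618 (permutation p = 0.0745, adjusted over 10 pairs 0.353) and Spearman's rho of 0.622 (permutation p = 0.0583, adjusted 0.292). Without the 2 libraries farthest from the median of ENSRNOG00000014226, r was 0.0602, so the relation rested on those libraries. With later and earlier means removed as well, r was 0.716 (permutation p = 0.29). ENSRNOG00000003348 and ENSRNOG00000004423 went in opposite directions, with r of -0.593 (permutation p = 0.0598, adjusted 0.353) and rho of -0.622 (permutation p = 0.0383, adjusted 0.292). For this pair r was -0.586 without the 2 farthest libraries and -0.29 with later and earlier means removed (permutation p = 0.337).

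In the amygdala no relation between the 5 genes from library to library within the lines passed the test. Of 10 pairs, 0 passed by permutation after adjustment. The largest r was negative, -0.762 between ENSRNOG00000003348 and ENSRNOG00000055185 (permutation p = 0.0164, adjusted over 10 pairs 0.164), with Spearman's rho of -0.517 (permutation p = 0.116, adjusted 0.794). It was -0.508 without the 2 libraries farthest from the median of ENSRNOG00000003348 and -0.767 with later and earlier means removed (permutation p = 0.0308, adjusted 0.308). With 12 libraries only strong relations could have been seen, and these libraries also chose the genes.

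For each of the 5, the gene most like it in its deviations from the 4 group means over 24 libraries was sought among 14242 others with a mean of at least 1 CPM. Being the highest of so many, these values describe likeness and carry no test. Later and earlier means were not removed here, though 48.1% of genes were called between later and earlier dorsal raphe libraries. How much of r in the dorsal raphe comes from that split was not tested. The closest match was ENSRNOG00000017932 for ENSRNOG00000004423, with Pearson's r of 0.941 and Spearman's rho of 0.940 over 24 libraries; r was 0.789 over the 12 amygdala and 0.951 over the 12 dorsal raphe libraries. ENSRNOG00000020361 followed ENSRNOG00000003348 (r 0.878, rho 0.844), with r of 0.513 over amygdala and 0.960 over dorsal raphe libraries. ENSRNOG00000051993 followed ENSRNOG00000014226 (r 0.831, rho 0.683), but r was only 0.171 in the amygdala against 0.903 in the dorsal raphe.

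The likenesses of the thinly counted genes were weaker. ENSRNOG00000016242 was nearest to ENSRNOG00000019129 (r 0.719, rho 0.730) and ENSRNOG00000057291 to ENSRNOG00000055185 (r 0.622, rho 0.492), both over 24 libraries. In the amygdala and the dorsal raphe, r was 0.657 and 0.771 for the first pair and 0.772 and 0.512 for the second, so the region with the larger r differed between the genes. Most nearest genes had a much smaller line difference in the amygdala than their member. The log2 fold changes there were -0.16 for ENSRNOG00000017932 against -0.46 for its member, and -0.06 for ENSRNOG00000020361 against -0.44. They were -0.33 for ENSRNOG00000016242 against -0.81, and -0.26 for ENSRNOG00000057291 against -1.14. Only ENSRNOG00000051993, at -0.38 against -0.41, was near its member, and r of that pair in the amygdala was 0.171.

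**Figure D3:**
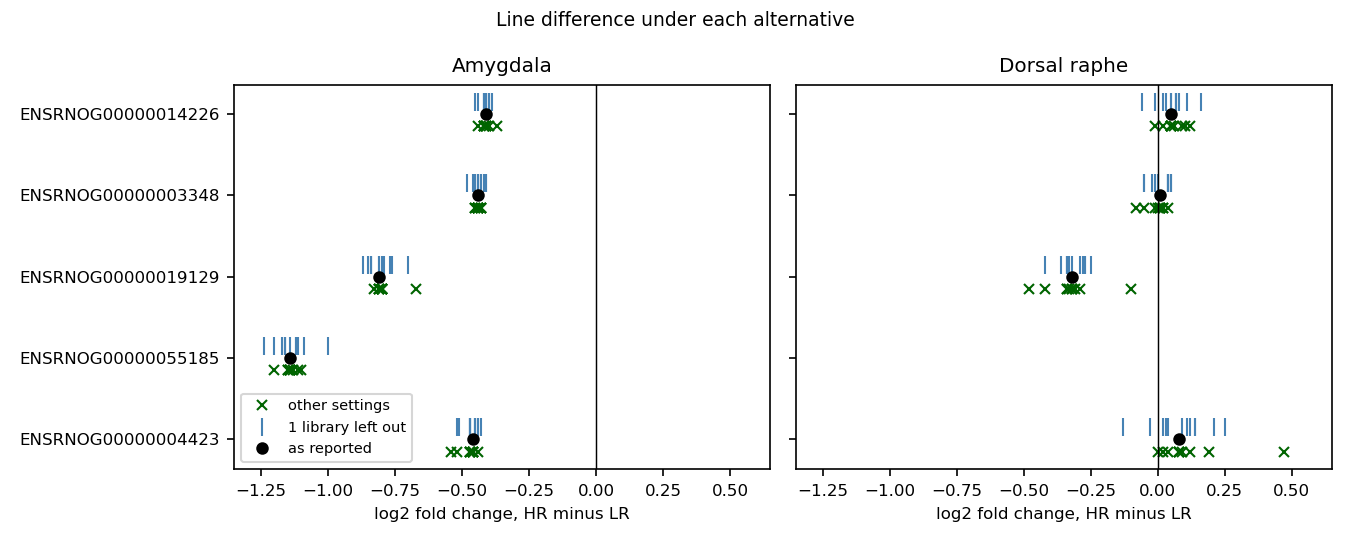
Line difference (log2 fold change, high minus low responder, horizontal axis) of the 5 genes in the amygdala (left) and of the 4 tested in the dorsal raphe (right); black points are the values as reported, blue ticks leave out 1 library each, and green crosses are the other 10 settings (scaling, filter, tool, library numbers, block). All amygdala values lie at or below -0.37, whereas the dorsal raphe values lie on both sides of 0 for all but ENSRNOG00000019129, which runs from -0.48 to -0.10.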

How the data were processed

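Per the submitters' processing notes, reads were processed with Trim Galore and STAR on the rat genome build rn6; for versions, counting program, annotation release and strand setting: not given in the sources used here. Per gene, the authors deposited raw read counts, 1 table per library, with no line that names no gene. Reads shared by overlapping or near-identical genes could not be told apart.

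Counts were tested with edgeR 4.0.16 (R 4.3.3): filterByExpr, TMM, glmQLFit and glmQLFTest, Benjamini-Hochberg adjusted over all genes tested, threshold 0.05. The line comparisons were fitted on the 12 libraries of a region, and the region comparison on all 24. Standard errors were obtained from the fold change and its F statistic, and 95% intervals use the residual degrees of freedom of the design. Printed CPM use TMM factors over 24 libraries; log2 CPM for correlations have a prior count of 2, and 100000 permutations were made within groups. Counting error is the square root of the expected count, on the CPM scale. The fits were also run on simulated data, and the outcome is not given here. Alternatives were RLE factors, library size only, other filters, limma 3.58.1 (voom, quality-weighted), DESeq2 1.42.0, a term for or a split by later library numbers, a replicate block and leaving out each library. The named genes were the 5 listed IDs and, for each, the 1 gene with the highest r. The genes and lists were chosen with earlier results of these data known. The later-against-earlier comparison, and the exact test and interval without the filter for ENSRNOG00000055185, were added after the data were seen.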

Additional observations from a re-analysis of the deposited data

How the results depend on the processing

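The counts of genes called between the lines moved with the setting, while the region count (9851) stayed within 1.5 times. In the amygdala, 3 of 14265 genes were called as reported. The fits with RLE factors, library size only, DESeq2 and limma voom also tested 14265 genes. RLE factors, library size only and no low count filter each gave 1, DESeq2 82, limma voom 246, the earlier libraries alone 0 with edgeR (705 at an unadjusted p under 0.05) and the later ones 61 (31 higher and 30 lower); leaving out 1 library gave 1 to 27, with 27 without high-responder library 2 and 13 without low-responder library 3. Of the 5 genes, DESeq2 and limma voom each called 5. The other settings on all 12 libraries or on earlier or later ones called 0 or 1. Leaving out 1 library gave 0 to 4 (4 without high-responder library 2 and without low-responder library 3). The amygdala line difference chose the 5 genes, so these calls are a description and do not support the choice. In the dorsal raphe 9 were called as reported, 39 with DESeq2, 26 with limma voom, 16 in the earlier and 0 in the later libraries alone with edgeR (237 at an unadjusted p under 0.05), and 3 to 12 when 1 library was left out; none of the 4 genes tested was called in any of these.

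Dorsal raphe line differences close to 0 changed sign. ENSRNOG00000003348 was -0.01 with limma voom, -0.05 with a term for later libraries and -0.08 in earlier libraries, and -0.05 to 0.05 when 1 library was left out. ENSRNOG00000014226 was -0.01 in later libraries and -0.06 to 0.16 when 1 was left out, and ENSRNOG00000004423 -0.13 to 0.25. Between later and earlier dorsal raphe libraries, ENSRNOG00000019129 was -0.04 with library size only and -0.08 to 0.10 when 1 library was left out, and ENSRNOG00000014226 -0.15 to 0.10. The cause of these changes was not tested.

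Deviations of same-numbered libraries correlated from -0.557 to 0.687 between the lines in the dorsal raphe and from -0.373 to 0.624 in the amygdala. In each, 2 of 6 were closest to their own number. Between the regions they correlated from -0.319 to 0.194 in high responders, with 1 of 6 closest to its own number. In low responders they correlated from -0.0948 to 0.152, with 0 of 6. The labels do not say whether equal numbers in the regions are the same rat, and these correlations cannot decide it. The region test as reported took the libraries as independent. With the number as a replicate block, 5 genes were called in the dorsal raphe, ENSRNOG00000004423 stood at 0.00, no member changed its call there or between regions, and in the amygdala the call of ENSRNOG00000014226 ended (edgeR adjusted p = 0.114). Depth limits ENSRNOG00000055185 most, with 3 to 10 counts per dorsal raphe library.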
